A study of Mus musculus with 18 samples.

Results

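The replication-dependent histone genes were taken as every gene whose symbol starts with Hist1h, Hist2h, Hist3h or Hist4h, which gave 64 of the 20207 genes listed for each library. They fell into 5 classes by the letters that follow, with 6 H1, 17 H2A, 17 H2B, 12 H3 and 12 H4 genes, and 50 of the 64 lay on chromosome 13. The rule by symbol also takes histone genes of the testis, which were not set apart. The libraries came from NIH3T3 cells, a mouse fibroblast line, in which a destabilizing domain fused to superfolder GFP (DD-GFP) was stably expressed. Every group, the control included, carried DD-GFP, which the small molecule S1 kept folded, and the cell population had been selected by sorting for high GFP. The 6 groups of 3 libraries were an untreated control at 0 min, heat stress (HS) for 45 or 135 min, and tunicamycin (Tu), a blocker of N-linked glycosylation that loads the endoplasmic reticulum with unfolded protein, for 45, 135 or 405 min. There was no HS group at 405 min.

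Replication-dependent histone genes supply the H2A, H2B, H3 and H4 proteins that form the nucleosome core, and the H1 proteins that bind the linker DNA, while DNA is being copied in S phase. Their mRNAs are the known exception among animal mRNAs in that they end in a conserved stem-loop instead of a poly(A) tail. The stem-loop binding protein SLBP and the U7 small nuclear RNP direct the cleavage that makes this end, and the mRNAs are degraded rapidly when DNA synthesis stops. Some of these genes are also known to give longer transcripts with a poly(A) tail, chiefly in cells that are not dividing. The libraries here were made from RNA selected on oligo(dT) beads, which hold transcripts by their tail, so the reads describe the part of the histone mRNA that passed this step and not the whole pool. The study's methods also name another kit for preparing cDNA libraries, without saying for which samples. Whether it changed how much histone mRNA without a tail was captured was not tested.

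The stem-loop was searched in the 150 bases after the coding part on the mm9 genome. The search used a fixed pattern of 16 bases, laid out as a stem of 6 base pairs closed by a loop of 4 bases. A match was found in 57 of the 60 members whose coding sequence was matched, against 4 of 19761 other transcripts (0.0202%). Among these were H2afx and the histone gene model Hist1h4n. The pattern did not require the stem to pair, and the match in Btbd10 does not pair throughout. The 57 carried 8 forms, shown because they separate the classes, with the stem in capitals and the loop in lower case.
Form in 34 members of H1, H2A, H2B and H3: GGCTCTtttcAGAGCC
Form in 9 members of H1, H2A, H2B and H3: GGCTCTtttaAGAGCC
Form in 7 H4 members: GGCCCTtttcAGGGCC
Form in Hist1h4i and Hist2h4: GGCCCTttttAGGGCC
Form in Hist1h4b and Hist1h4j: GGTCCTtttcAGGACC
Form in Hist1h4a: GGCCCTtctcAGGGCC
Form in Hist1h3g: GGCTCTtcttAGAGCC
Form in Hist2h2ac: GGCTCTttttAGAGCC
No H4 form occurred in a member of another class. The 3 members with a coding sequence and no match in the window were Hist1h2an, Hist2h2bb and Hist2h2be. For Hist2h2bb the window began after a coding piece of 226 bases, against a coding part of 378 bases in Hist1h2bg. The lack of a match does not show that a stem-loop is absent.

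The stem-loops of 5 members on which the results below turn are given with 5 bases on each side and the 16 bases in capitals, as they stand on the genome.
Hist3h2a at chr11:58768669-58768694, plus strand: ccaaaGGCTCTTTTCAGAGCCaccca
Hist1h1c at chr13:23831376-23831401, plus strand: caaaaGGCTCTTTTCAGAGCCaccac
Hist1h2ab at chr13:23843436-23843461, plus strand: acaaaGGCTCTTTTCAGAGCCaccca
Hist1h2ak at chr13:21845246-21845271, minus strand: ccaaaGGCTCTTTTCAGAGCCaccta
Hist1h4d at chr13:23673814-23673839, plus strand: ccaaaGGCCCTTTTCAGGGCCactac
Coordinates are mm9. The 16 bases of Hist3h2a, Hist1h1c, Hist1h2ab and Hist1h2ak were identical, and only the H4 gene Hist1h4d differed. Hist3h2a was called higher and Hist1h2ab and Hist1h2ak lower after 405 min of Tu. Hist2h2be, the other member called higher there, had no match to the pattern searched.

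The start of the genes held a second element that followed the classes. The octamer ATTTGCAT, the site of POU factors long known from H2B promoters, was searched on both strands from 250 bases before to 50 bases after each start in the RefSeq promoters of GRCm38.p6, in which 58 members were matched. It was present in 7 of 14 H2B and 7 of 17 H2A genes and in no H1, H3 or H4 gene, against 532 of all 27025 genes (1.97%). Hist1h2ae and Hist1h2bg are an example of an H2A and an H2B gene that lie head to head, with 180 bases between their starts on mm9, and they hold the same octamer read from opposite strands. It is given here in 28-base stretches with the octamer or its reverse complement in capitals, beside those of Hist3h2a and Hist1h2ab, which lie elsewhere.
Hist1h2ae, 128 bases before the start: tagaggttctATGCAAATaagggactca
Hist1h2bg, 59 bases before the start: tgagtcccttATTTGCATagaacctcta
Hist3h2a, 119 bases before the start: ggtaaggcatATGCAAATtaggaaggct
Hist1h2ab, 129 bases before the start: gcaggcctttATGCAAATgaggagctca
A match is a description of the letters and not evidence of binding.

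The histone genes were sparsely read. A library held 33415592 to 66478268 reads on genes, of which 687 to 3180 fell on the 64 members, or 17.8 to 59.5 CPM when divided by the library total. In all 18 libraries together the members took 30279 reads. A total of 31 members had at least 1 read in every library and were tested (4 H1, 9 H2A, 6 H2B, 7 H3 and 5 H4). Another 26 had 2 to 116 reads over the 18 libraries, never more than 26 in a library, and held 4.45% of the histone reads. The remaining 7 were listed at 0 in every library, namely Hist1h2ad, Hist1h2ao, Hist2h2aa1, Hist2h2aa2, Hist2h3b, Hist2h3c1 and Hist1h4m. A member that lost all its reads in a group could not enter the test, so the tested members are those that kept reads everywhere.

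Levels between genes were compared in RPKM, reads scaled to the length of the gene and the size of the library. The 31 tested members had a median of 0.550 RPKM over the 18 libraries, against 6.53 for all 12731 genes tested. Hist1h2af was the highest at 10.4 RPKM, followed by 3 further H2A genes and an H4 gene among the next 4, with Hist1h2aa at 3.40, Hist3h2a at 2.99, Hist1h4d at 2.58 and Hist1h2ak at 2.11 RPKM. These are means over all groups, and the order was not the same in each. Hist1h2af was the highest member at 12.4 RPKM in control and at 28.2 RPKM after Tu for 45 min, but the fifth at 2.32 RPKM after HS for 135 min and the third at 1.94 RPKM after Tu for 405 min, where Hist3h2a was the highest at 5.53 RPKM. Above the pooled mean of Hist1h2af stood 5004 of the genes tested (39.3%). The highest members of the other classes were Hist2h3c2 at 1.68, Hist1h2bg at 1.34 and Hist1h1c at 1.34 RPKM.

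The variant histones, which are made outside S phase from ordinary polyadenylated mRNAs, were far higher in the same libraries. H2afz, the H2A.Z gene, had a mean of 320.6 RPKM. The H3.3 genes H3f3b and H3f3a had 209 and 141 RPKM, and the linker variant H1f0 had 142 RPKM. H2afx, whose transcript holds a stem-loop of the histone kind and is known to be made with a tail as well, had 55.7 RPKM.

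**Figure D1:**
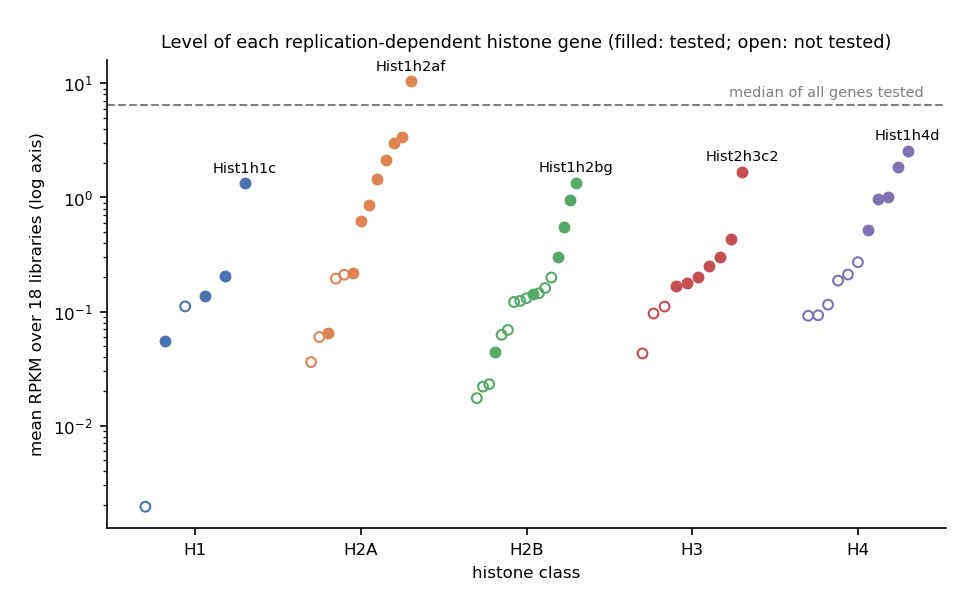
Mean RPKM over 18 libraries on a log axis for the 57 histone genes with any reads, by class, with tested genes filled and untested genes open. Only Hist1h2af, at 10.4 RPKM, lies above the dashed line at 6.53 RPKM, the median of all genes tested.

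A few genes held most of the reads. Hist3h2a alone held 24.2% of the histone reads and Hist3h2a with Hist1h2af held 39.6%. These shares pool the groups. Of the summed scaled CPM, Hist3h2a took 8.98% to 13.1% in a control library and 56.2% to 58.3% in a library of Tu for 405 min, and Hist1h2af took 5.62% to 28.4% and 2.91% to 5.92%. The 10 most read genes held 74.9%. By class, H2A held 55.8%, H2B 12.1%, H4 10.9%, H1 10.9% and H3 10.3% of the reads. A change in the summed histone level can therefore be that of 1 or 2 H2A genes, and sums are given below with and without them.

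The members are close copies of each other, which bears on how their reads were divided. Of the 51 members with another of their class and the same coding length, 40 were at least 95% identical to it in coding sequence, namely 10 of 15 H2A, 11 of 14 H2B, 10 of 10 H3 and 9 of 12 H4 genes. The deposited counts were estimates. Among values above 0, the share more than 0.05 from a whole number was 50.2% for H2A, 26.4% for H2B, 15.6% for H4, 10.8% for H3 and 2.20% for H1. Fractional values were thus most frequent for H2A and least for H1 genes. How certain the value of a single gene is was not tested, as the sources do not say how shared reads were divided. The rows of Hist1h1e and Hist1h2be overlap on the genome, as do those of Hist2h3c2 and Hist2h3c1 and of Hist2h2aa1 and Hist2h2aa2. Hist2h3c1, Hist2h2aa1 and Hist2h2aa2 were at 0 in every library, and whether this reflects how reads were assigned was not tested. Hist2h4 was listed with 2 sets of bounds, 96066893 to 96067239 in 11 libraries and 96066859 to 96067256 in 7. Its counts may therefore not cover the same stretch in every library. The sources used here do not say whether strand was used in counting.

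Replicates differed more for some members than for others. Hist1h2af had 47, 560 and 250 reads in the control libraries, 432, 755 and 976 after Tu for 45 min and 542, 63 and 33 after Tu for 135 min. Its highest library exceeded its lowest by 12.8-fold in unscaled CPM within the Tu 135 min group. The first of the Tu 135 min libraries stood apart from the other 2 in H2A, H3 and H4 sums. Hist3h2a, by contrast, had 108, 177 and 162 reads in control and 758, 796 and 810 after Tu for 405 min.

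The stress markers were checked against the labels. Hspa1b, a heat-inducible HSP70 gene, had a log2 change of 7.24 after HS for 135 min, and Hspa5 and Ddit3, targets of the unfolded protein response, had changes of 3.73 and 5.22 after Tu for 405 min (adjusted p = 0.0058, 4.64e-06 and 2.45e-06, edgeR). Hspa1b was not called after HS for 45 min, at 4.99 (adjusted p = 0.192, edgeR), nor Hspa5 after Tu for 135 min, at −0.72 (adjusted p = 0.135, edgeR). Hspa5 and Ddit3 were also called higher after HS for 135 min, by 0.96 and 2.32 (adjusted p = 0.0312 and 0.0122, edgeR). The fibroblast genes Col1a1, Vim and Fn1 had at least 649 RPKM in every library, while the defining genes of epithelial, blood, muscle and germ cells Epcam, Ptprc, Myod1 and Ddx4 had at most 0.0258 RPKM. Of the 16 markers of other cell types 14 stayed under 1 RPKM in every library, with Prm1 of germ cells reaching 0.783 and Des of muscle 0.390 RPKM. The exceptions were the macrophage gene Cd68, at 3.72 to 7.61 RPKM, and the neuronal tubulin gene Tubb3, at 2.06 to 11.7 RPKM.

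In all tests a gene was called when its adjusted p was under 0.05 in the quasi-likelihood test of edgeR, adjusted by Benjamini-Hochberg over the 12731 genes. Values per library are CPM scaled by TMM factors, a correction for the make-up of each library, which allow a gene to be compared between libraries but not with another gene of different length. Fold changes are on the log2 scale with their SE, and all groups had n = 3. Because the labels do not say that the triplicates were separate cultures, the p-values measure only the spread between these libraries. In bulk RNA a smaller share of cells in S phase and less histone mRNA in each such cell cannot be told apart.

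At 405 min of Tu most histone genes were lower, while Hist3h2a and Hist2h2be were higher. Of the 31 tested members 15 were called lower and 2 higher. The share called lower was 48.4%, against 23.5% of all genes tested, and the share called in either direction was 54.8%, against 46.8% of all genes. The median change of the members was −1.46, against −0.01 over all genes tested, and 27 of the 31 lay below 0, against 50.7% of all genes. The treated and control libraries did not overlap for 15 lower members and 2 higher ones, where 29.5% of all genes were lower and 29.2% higher in this way.

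The core histone H2A showed both directions. Hist1h2ab had 1.36, 1.29 and 1.08 CPM in control and 0.0631, 0.0706 and 0.27 CPM at 405 min of Tu. No treated library reached the lowest control, and the treated values rest on 4, 4 and 15 reads. It was 9.09-fold lower (log2 change −3.19 ± 0.46, adjusted p = 0.00092, edgeR), and the log2 change was −4.15 without the third treated library.

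Hist1h2ak had 1.21, 0.929 and 1.01 CPM in control and 0.0631, 0.176 and 0.198 CPM at 405 min. The groups were again well separated, from 44 to 52 reads in control down to 4 to 11 reads. The fall was 7.06-fold (−2.82 ± 0.37, adjusted p = 0.000578, edgeR).

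Hist1h2af was called lower as well (−2.57 ± 0.65, adjusted p = 0.0121, edgeR), but its groups overlapped. It had 1.18, 10 and 5.72 CPM in control and 1.25, 0.794 and 0.756 CPM at 405 min, so that the first control library lay among the treated ones. It was not called in a fit of all 6 groups (adjusted p = 0.0722, edgeR), with the replicate number as a block (0.0556), with the block and a GC offset (0.0577) or without the second treated library (0.0514). Hist1h2ag, Hist1h2ac and Hist1h2ae were the other H2A genes called lower, with changes of −2.31, −2.22 and −1.60.

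Hist3h2a went the other way. It had 2.71, 3.16 and 3.71 CPM in control and 12, 14 and 14.6 CPM at 405 min of Tu. Every treated library was more than 3 times the highest control. It was 4.30-fold higher (2.10 ± 0.18, adjusted p = 7.16e-05, edgeR). Hist1h2aa and Hist2h2ac, the other tested H2A genes, were not called. Hist1h2aa had 1.48, 1.21 and 1.42 CPM in control and 1.23, 1.11 and 1.53 CPM at 405 min.

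Of the 6 tested H2B genes, the partner of H2A in the nucleosome, 1 was called lower and 1 higher. Hist1h2bg had 0.577, 1.66 and 1.19 CPM in control and 0.158, 0.317 and 0.324 CPM at 405 min. Its 3 treated libraries all lay below its lowest control (−2.10 ± 0.44, adjusted p = 0.00527, edgeR). Hist2h2be had 0.351, 0.607 and 0.549 CPM in control and 0.962, 1.22 and 1.06 CPM at 405 min. All its treated libraries lay above the controls, a 2.15-fold rise (1.11 ± 0.26, adjusted p = 0.00864, edgeR). Hist2h2bb had 0.477, 0.875 and 0.892 CPM in control and 0.237, 0.406 and 0.63 CPM at 405 min. With 1 treated library inside the control range it was at −0.82 ± 0.39 and was not called. Hist1h2be, the lowest of the tested H2B genes in RPKM, had 0.0502, 0.179 and 0.0686 CPM in control and 0.0473, 0.0529 and 0.054 CPM at 405 min, and was not called.

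All calls among the H3 and H4 genes were lower. Of 7 H3 genes 2 were called lower. Hist2h3c2, the most read H3 gene, had 2.66, 2.68 and 1.35 CPM in control and 0.331, 0.547 and 0.612 CPM at 405 min. The groups did not overlap and the fall was 4.44-fold (−2.15 ± 0.35, adjusted p = 0.00165, edgeR). Hist1h3f had 0.326, 0.393 and 0.297 CPM in control and 0.0473, 0.106 and 0.072 CPM at 405 min. It fell by 2.14 without overlap, from 13 to 22 reads in a control library to 3 to 6 reads. Hist1h3c, with 0.251, 0.232 and 0.297 CPM in control and 0.126, 0.0706 and 0.306 CPM at 405 min, overlapped and was at −0.61. Hist1h3i, with 0.326, 0.0714 and 0.137 CPM in control and 0.0473, 0.0529 and 0.108 CPM at 405 min, overlapped as well and was at −1.25. Neither was called.

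Of 5 H4 genes 4 were called lower. Hist1h4d, the H4 gene with the most reads per length, had 0.653, 1.57 and 0.961 CPM in control and 0.205, 0.3 and 0.252 CPM at 405 min. Hist1h4i had 0.603, 0.982 and 1.05 CPM in control and 0.252, 0.159 and 0.252 CPM at 405 min. In neither gene did the groups overlap, and the falls were 4.18-fold (adjusted p = 0.00262) and 3.90-fold (adjusted p = 0.00158, edgeR). Hist4h4 had 0.452, 0.464 and 0.389 CPM in control and 0.0946, 0.123 and 0.234 CPM at 405 min, which put it and Hist1h4a among the genes called lower, with changes of −1.51 and −2.35. Hist2h4 had 0.402, 0.607 and 0.412 CPM in control and 0.221, 0.282 and 0.576 CPM at 405 min, so its groups overlapped (−0.40 ± 0.40).

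The linker histone H1 was mixed. Hist1h1d had 0.301, 0.268 and 0.275 CPM in control and 0.0315, 0.106 and 0.072 CPM at 405 min. Its control libraries were nearly level and all treated ones were lower (−1.97 ± 0.42, adjusted p = 0.00574, edgeR). Hist1h1b was called lower at −2.19 ± 0.65 on 1 to 3 reads in a treated library, and it was not called by DESeq2 (adjusted p = 0.0623), with the replicate block (adjusted p = 0.0587, edgeR), or without the second control, the first treated or the second treated library. Hist1h1c, which held most H1 reads, was at −0.35 ± 0.18 (adjusted p = 0.153, edgeR) and was not called.

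**Figure D2:**
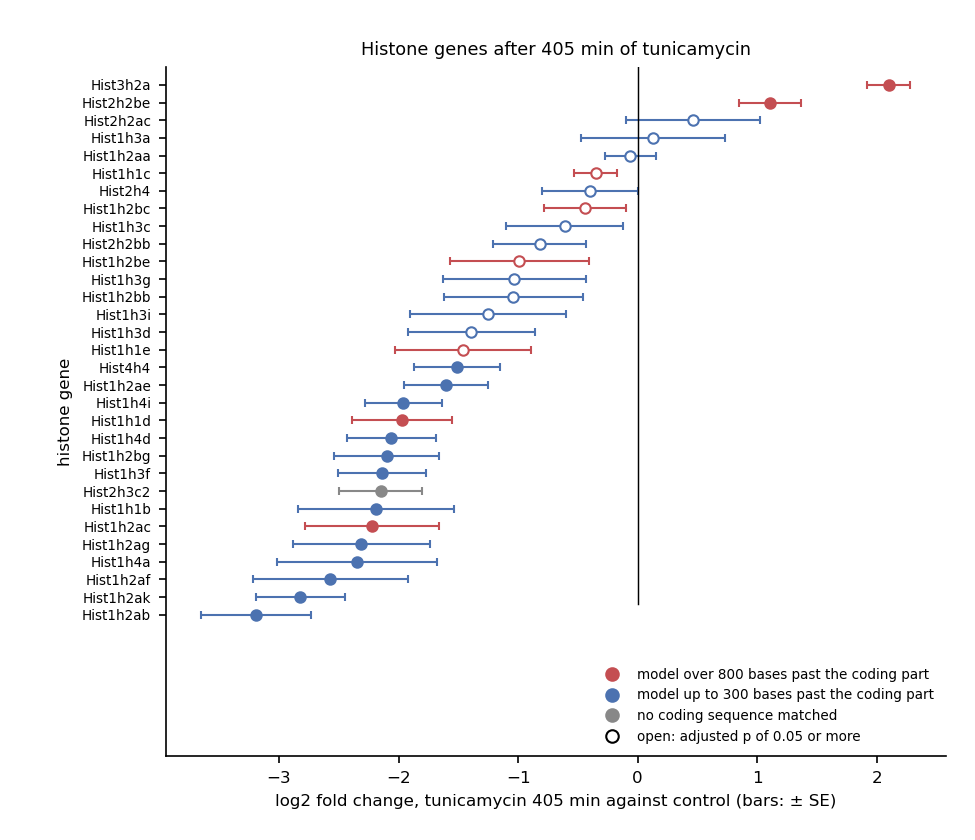
Log2 fold change at 405 min of tunicamycin against control, with bars of ± SE, for the 31 tested histone genes ordered by change, with called genes filled. Hist3h2a at 2.10 and Hist2h2be at 1.11 stand at the top, and both have gene models over 800 bases past the coding part on the genome. The 3 lowest, Hist1h2ab, Hist1h2ak and Hist1h2af, have short models.

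The gene models differed in how far they ran past the coding part. In the deposited coordinates, 9 members had gene models that ran 882 to 7871 bases past the coding part, and 51 ended within 230 bases of it. These distances are on the genome and include any introns, so a long model need not be a long transcript. Hist1h2bc, which ran 7871 bases past, spans 8282 bases and had 474 reads at a mean of 0.550 RPKM. Hist3h2a spans 1990 bases and had 7324 reads at 2.99 RPKM. Per RPKM Hist1h2bc thus had fewer reads, so its RPKM was made on less than its span. A canonical poly(A) signal, AATAAA, lay in the genomic stretch past the coding part in 7 of the 9 long models and 3 of the 51 short ones. These counts follow the length searched and cannot be compared. In 33 members the model was the coding part with at most a stop codon, which leaves no room for the signal. Of the 2 genes called higher at 405 min of Tu, both of which have long models, Hist2h2be holds AATAAA there and Hist3h2a does not. When ATTAAA was counted as well as AATAAA, Hist3h2a had 1 match. At 405 min of Tu the 8 tested long models had 2 genes called higher (Hist3h2a and Hist2h2be), 2 called lower (Hist1h1d and Hist1h2ac) and 4 not called, with a median change of −0.72. The 22 tested short models had none called higher and 12 called lower, with a median of −1.56. This division was made after the values were seen and was given no test. A longer model also collects reads from a longer stretch, and where along a model the reads fell is not given by the counts.

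Summed over all members of each class, H3 and H4 were the furthest below control. H3 had 3.99, 4.04 and 2.59 CPM in control and 0.71, 1.11 and 1.6 CPM at 405 min of Tu. H4 had 2.81, 4.61 and 3.55 CPM in control and 1.09, 1.09 and 1.69 CPM at 405 min. In both classes no treated library reached a control one. The class means were 3.10-fold and 2.83-fold lower. Hist2h3c2 alone gave 2.66, 2.68 and 1.35 CPM of the H3 sum in control and 0.331, 0.547 and 0.612 CPM at 405 min. The H3 sum without Hist2h3c2 was not computed. H1 was at 3.45 ± 0.358 in control and 2.21 ± 0.199 CPM at 405 min (SD, n = 3). H2B was at 3.53 ± 1.09 and 2.47 ± 0.418 CPM, with overlapping libraries.

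The H2A sum hid its members. It was 14 ± 4.82 CPM in control and 16.6 ± 1.56 CPM at 405 min (SD, n = 3). Without Hist3h2a it went from 10.8 ± 4.56 to 3.06 ± 0.425 CPM, 3.53-fold lower and a larger fall than that of the H3 or H4 sum. Without Hist1h2af as well it went from 5.18 ± 0.184 to 2.13 ± 0.542 CPM. The same held for all members. Their sum was 28.2 ± 7.07 CPM in control and 23.7 ± 2.47 CPM at 405 min, with overlapping libraries. Without Hist3h2a and Hist1h2af the sum was 19.4 ± 2.46 against 9.24 ± 1.40 CPM, 2.10-fold lower. The 33 untested members together were at 1.46 ± 0.305 CPM in control and 0.815 ± 0.245 CPM at 405 min, their highest treated library, at 1.1 CPM, equalling their lowest control.

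**Figure D3:**
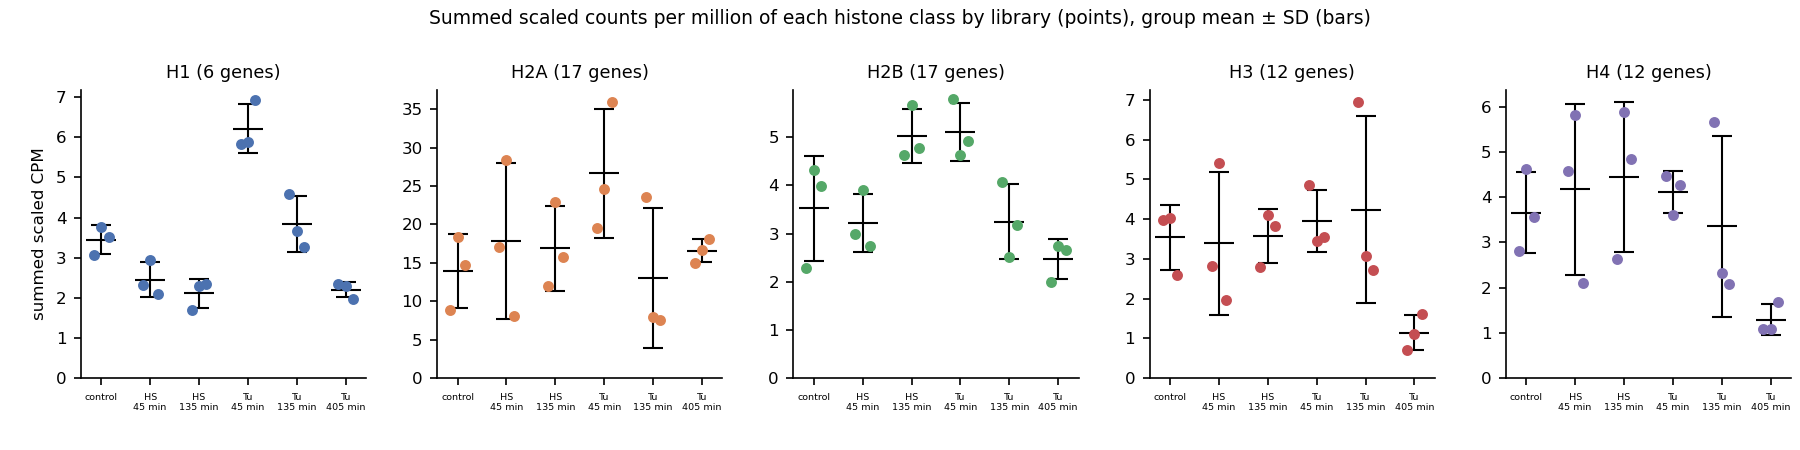
Summed scaled CPM of each histone class in each library (points) with the group mean ± SD (bars, n = 3). H3 and H4 at 405 min of tunicamycin, at 0.71 to 1.69 CPM, lie below all 3 control libraries, H1 is highest at 45 min of tunicamycin, and the first Tu 135 min library lies above its replicates in H2A, H3 and H4.

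The other genes of the histone supply line were counted from lists, and are to be read against 23.5% of all genes called lower and 23.3% called higher at 405 min of Tu. Of 26 tested S phase genes, 24 were called lower (92.3%) and none higher, with a median of −1.10. The replication clamp Pcna went from 385 ± 28.3 to 191 ± 15.2 CPM, the helicase subunit Mcm5 from 490 ± 60.3 to 157 ± 16.8 CPM and thymidine kinase Tk1 from 227 ± 11.5 to 69.8 ± 3.99 CPM (SD, n = 3). The exceptions, named after their values were seen, were Mcm2 at −0.30 and Cdc6 at 0.56, which were not called. The S phase genes moved with the histone genes, and their part in the histone result was not tested.

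Among 21 genes of histone mRNA transcription and processing, 7 were called lower (33.3%) and 3 higher (14.3%), and the 47.6% called in either direction is near the 46.8% of all genes. The stem-loop binding protein gene Slbp, which is also on the S phase list, went from 50.7 ± 13.6 to 24.2 ± 1.56 CPM. Npat and Casp8ap2, components of the nuclear bodies where histone genes are transcribed, fell by 0.64 and 1.35. Lsm11, a protein of the U7 particle, fell by 0.65, while its partner Lsm10 rose by 0.66. Cstf2, Cstf2t and Srrt were the others called lower, and the shared Sm protein genes Snrpb and Snrpf the others called higher.

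Of 16 genes of histone mRNA decay 6 were called lower (37.5%) and 2 higher (12.5%), in sum again near that background. The helicase Upf1 fell by 1.16 and the exonuclease Xrn1 by 0.67, while Lsm1, of the ring that binds the degraded end, rose by 0.50. Of 20 chaperone and deposition genes 5 were called lower and 1 higher, so that the share called lower was near that of all genes. Chaf1a and Asf1b, which place H3 and H4 on new DNA, fell by 1.29 and 0.88. Daxx, a chaperone of the H3.3 variant, rose by 0.59.

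Of the 11 tested replication-independent variants 5 were called higher (45.5%) and none lower. H1fx rose by 1.38, H1f0 by 0.84, H3f3a by 0.80, H2afx by 0.72 and H2afj by 0.63. H2afx was thus higher although its transcript can end in a stem-loop, and H2afz, at −0.17, was not called.

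RNAs known to lack a poly(A) tail were summed beside the histone genes. Such a sum depends on how much of these RNAs the cells held and on how much passed the selection, which cannot be told apart here. Small nucleolar, small nuclear and similar RNAs, 36 rows in all, summed to 12.5, 20.9 and 17.6 unscaled CPM in control and 14.8, 23.3 and 27.9 at 405 min of Tu, so the groups overlapped. Of 14 tested, Snora65 was called higher and Rnu7, the U7 RNA itself, lower, with 51, 91 and 85 reads in control and 48, 50 and 37 at 405 min. Of 9 tested abundant polyadenylated mRNAs, Tbp was called higher and Actb, Tuba1b, Vim and Actg1 lower.

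The change came after 135 min. Between 405 and 135 min of Tu, compared directly, 14 of the 31 members were called lower and 1 higher, against 43.7% of all genes called in either direction and 22.4% called lower. Hist3h2a had 4.45, 3.15 and 3.75 CPM at 135 min, so that all 405 min libraries lay above them (1.82 ± 0.19, adjusted p = 0.000365, edgeR). Hist1h2ak had 1.6, 0.731 and 0.985 CPM at 135 min and was lower at 405 min by 2.93 ± 0.46 (adjusted p = 0.00202, edgeR). Hist2h3c2 was lower by 2.66 and Hist1h1e by 1.69. Hist1h1e had 0.653, 0.6 and 0.492 CPM at 135 min and 0.205, 0.141 and 0.198 CPM at 405 min, well apart. It was not called against control, where its libraries were at 0.126, 0.839 and 0.526 CPM. The number of calls fell from 15 to 7 without the first of the 405 min libraries.

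Against control, the 135 min Tu libraries showed no call among the members, with 0.134% of all genes called, 0.126% higher and 0.00785% lower. At an unadjusted p under 0.05 there were 2 lower members and none higher, and DESeq2 also called 0. The median change was −0.05 and the range −1.08 to 0.99. Hist1h2ab had 1.33, 0.806 and 0.575 CPM and Hist1h2aa had 1.09, 0.562 and 0.301 CPM, the latter below all its controls at −1.06 ± 0.42. Hist2h2bb, at 0.363, 0.262 and 0.438 CPM, was the other member below its controls, at −1.08 ± 0.37. Of all genes 13.6% lay below their controls in this way. The summed level of the members was 44.8, 19.5 and 18.8 CPM, a spread wider than any change at this time.

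At 45 min of Tu most members lay above control. Of the 31, 3 were called higher and none lower, a share of 9.68% against 6.17% of all genes called in either direction and 4.01% called higher and 2.17% lower. The median change was 0.51 and 7 of the 31 were below 0, against 50.4% of all genes.

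Hist1h1c encodes the linker histone H1.2, and its counts were nearly whole. It had 2.49, 2.32 and 2.56 CPM in control and 4.2, 4.34 and 5.57 CPM at 45 min. All treated libraries lay well above the control ones, a 1.93-fold difference (0.95 ± 0.18, adjusted p = 0.0282, edgeR). At 135 min it had 3.46, 2.59 and 2.3 CPM and at 405 min 2.08, 2.03 and 1.58 CPM, so that only the 45 min value was called.

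Hist3h2a had 5.82, 7.12 and 8.0 CPM at 45 min, above its controls by 2.20-fold (1.14 ± 0.20, adjusted p = 0.0211, edgeR). At 135 min it had 4.45, 3.15 and 3.75 CPM and was not called (0.26 ± 0.24, adjusted p = 0.608, edgeR), and it was highest at 405 min. Hist1h2ae had 0.301, 0.429 and 0.435 CPM in control and 1.14, 1.19 and 0.868 CPM at 45 min (1.47 ± 0.26, adjusted p = 0.0219, edgeR). It was called in both directions over the time course, since at 405 min it had 0.11, 0.0882 and 0.18 CPM.

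The H1 sum lay above its controls at 45 min, with 5.84, 5.89 and 6.92 CPM against 3.06, 3.77 and 3.52 CPM in control. Most of it was Hist1h1c, with 4.2, 4.34 and 5.57 CPM against 2.49, 2.32 and 2.56 CPM. The H1 sum without Hist1h1c was not computed. H2B had 5.79, 4.62 and 4.93 CPM against 2.28, 4.32 and 3.98 CPM, also without overlap. The H2A sum had 19.5, 24.6 and 35.9 CPM against 8.86, 18.4 and 14.7 CPM, likewise without overlap. It reached 26.7 ± 8.37 CPM, of which Hist1h2af gave 6.42, 9.99 and 20.7 CPM. Without Hist3h2a and Hist1h2af it was 7.33 ± 0.125 CPM against 5.18 ± 0.184 CPM in control, and the sum of all members without both was 26.7 ± 1.63 against 19.4 ± 2.46 CPM (SD, n = 3). H3 and H4 overlapped with their controls, at 3.95 ± 0.786 and 4.11 ± 0.453 CPM (SD, n = 3).

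The calls at 45 min passed the threshold in some fits only, while the changes moved little. With the replicate number as a block none of the 3 was called, with changes of 0.94 for Hist1h1c, 1.47 for Hist1h2ae and 1.14 for Hist3h2a (adjusted p = 0.155, 0.135 and 0.109, edgeR). With the block and a GC offset together Hist1h1c (adjusted p = 0.0463) and Hist3h2a (0.0376) were called and Hist1h2ae (0.0599, edgeR) was not. None was called without the second control library, without the third control library or without the second Tu 45 min library, and 1 was called without the first or the third Tu 45 min library. Beside them, the variants H1f0 and H1fx were called higher by 1.29 and 0.66 and H2afz lower by 0.76, while of 26 S phase genes only Fen1 was called, at −0.69. No decay, chaperone or tail-less RNA was called, and of the processing genes only Snrpg was, at −1.11.

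**Figure D4:**
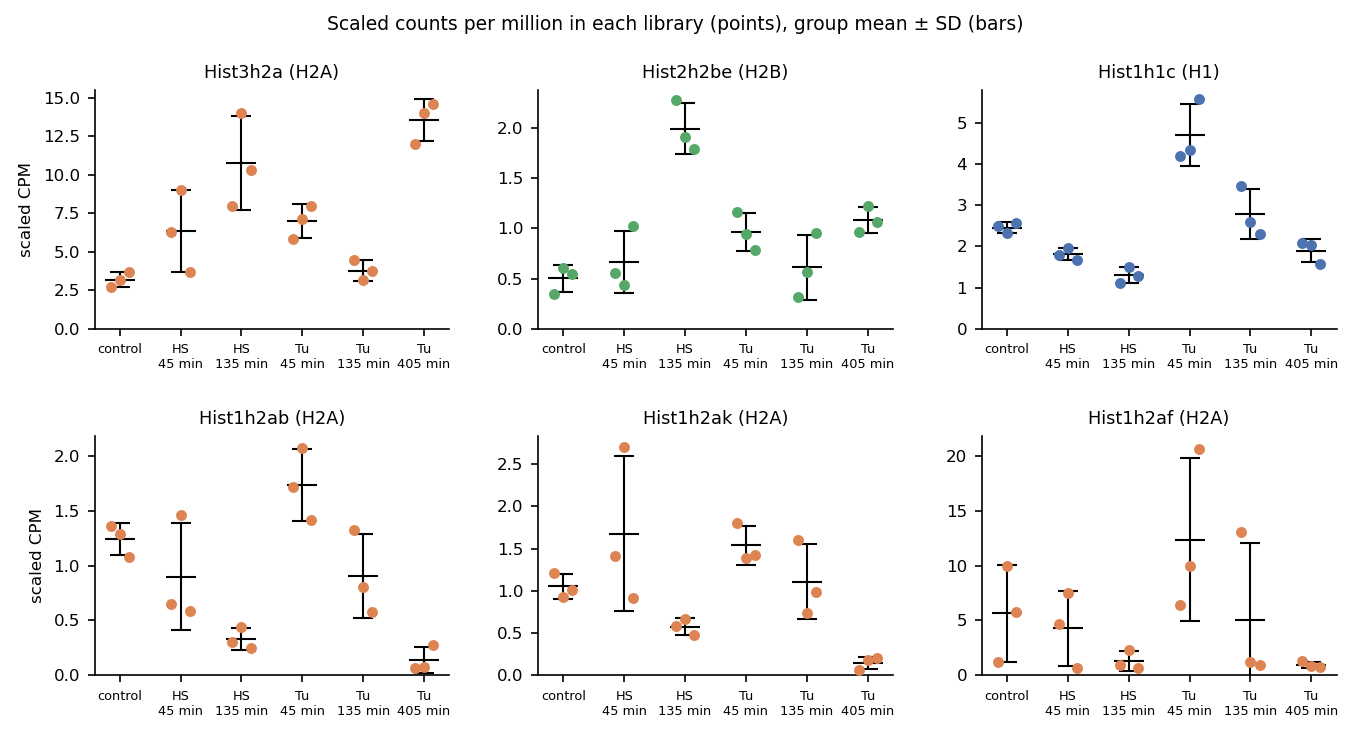
Scaled CPM of 6 histone genes in each library (points) with the group mean ± SD (bars, n = 3). Hist3h2a rises at 405 min of tunicamycin and 135 min of HS, Hist2h2be is highest at 135 min of HS, Hist1h1c is highest at 45 min of tunicamycin, Hist1h2ab and Hist1h2ak are lowest at 405 min, and Hist1h2af scatters within groups.

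At 135 min of HS, 2 members were called higher and 1 lower, 9.68% of the 31 against 7.39% of all genes called in either direction, 4.75% higher and 2.64% lower. The genes were among those that moved at 405 min of Tu, and the comparisons share the control libraries. Hist3h2a had 7.94, 14 and 10.3 CPM, all above control (1.75 ± 0.30, adjusted p = 0.021, edgeR). Hist2h2be had 2.28, 1.91 and 1.79 CPM, its highest values in any group and 3.93-fold above control (1.97 ± 0.32, adjusted p = 0.0199, edgeR). Hist1h2ab had 0.301, 0.443 and 0.246 CPM, all below control (−1.91 ± 0.33, adjusted p = 0.021, edgeR).

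Other members lay apart from control without a call. With the called ones, the libraries did not overlap for 3 higher and 6 lower members, against 18.1% and 19.0% of all genes. Hist2h4, whose listed bounds differed between libraries, had 0.712, 2.75 and 1.88 CPM against 0.402, 0.607 and 0.412 CPM, at 1.89 ± 0.51 (adjusted p = 0.0603, edgeR). Hist1h1c had 1.11, 1.51 and 1.28 CPM, below all its controls at −0.92 ± 0.27 (adjusted p = 0.0701, edgeR). Hist1h3i was at −2.16 ± 0.74 on 1 to 3 reads in an HS library. The median of the members was −0.22 and 19 of 31 were below 0.

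By class, the H1 sum was 1.69, 2.3 and 2.34 CPM, below its controls, and the H2B sum 4.63, 5.67 and 4.78 CPM, above them. Of the H1 sum Hist1h1c gave 1.11, 1.51 and 1.28 CPM, and the sum without it was not computed. Without Hist2h2be the H2B sum was 3.03 ± 0.706 CPM against 3.02 ± 0.959 CPM in control, with overlapping libraries. H2A, H3 and H4 overlapped with control, at 16.9 ± 5.55, 3.58 ± 0.687 and 4.45 ± 1.66 CPM (SD, n = 3). Without Hist3h2a the H2A sum was 6.14 ± 2.50 CPM against 10.8 ± 4.56 CPM in control, and without Hist1h2af as well 4.88 ± 1.72 against 5.18 ± 0.184 CPM.

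The libraries of this group also differed in RNAs without a tail. The 36 rows summed to 19.8, 80.1 and 152.3 unscaled CPM, against 8.88 to 27.9 in the other 15 libraries, and most of this came from Rmrp and Rpph1, the RNA parts of the MRP and P ribonucleases, both called higher. Without these 2 rows the sums were 11.4, 7 and 11.2 unscaled CPM. At 45 min of HS, Rmrp had 424, 174 and 39 reads and Rpph1 had 141, 66 and 23 reads, and neither was called. In control they had 17 to 58 and 16 to 46 reads. Without these 2 rows the HS 45 min sums were 4.97, 4.46 and 12.8 unscaled CPM. At 135 min of HS, Rnu1b2 and Snord83b were called lower. Their part in the histone values was not tested. Of 26 S phase genes Rrm1 and Tk1 were called lower, at −1.03 and −0.83, and of the variants H3f3b was called lower at −1.30. No gene of histone mRNA processing, decay or deposition was called. Of the abundant mRNAs Tuba1b was called lower at both 135 min of HS and 45 min of Tu.

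Whether these 3 members passed the threshold depended on single libraries, while their changes moved little. None was called without the second control, the third control or the third HS 135 min library, and 5 members were without the first HS 135 min library. Over the fits that left out a library, the change was −2.14 to −1.74 for Hist1h2ab, 1.79 to 2.14 for Hist2h2be and 1.54 to 1.93 for Hist3h2a. With the replicate number as a block none was called, at −1.93, 1.99 and 1.72 (adjusted p = 0.143 for each, edgeR). With the block and a GC offset together all 3 were called (adjusted p = 0.0404, 0.0383 and 0.0483, edgeR).

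At 45 min of HS no member was called, as no gene of the 12731 was (0.0%), and DESeq2 called 0 members. At an unadjusted p under 0.05 there were 1 higher and 2 lower members, and the median change was 0.01. Hist3h2a had 6.26, 9.04 and 3.7 CPM, with the third library at its highest control (0.99 ± 0.38, adjusted p = 0.241, edgeR). Hist1h2aa had 2.9, 5.12 and 0.741 CPM, a spread of 5.58-fold in unscaled CPM. The third library was low in most sums, with 17 CPM over all members against 29.8 and 46.4 CPM in the others, and without it 4 members were called. No gene of the S phase, processing, decay, chaperone, variant, tail-less or abundant mRNA lists was called at 45 min of HS or 135 min of Tu.

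In the direct comparison of HS at 135 and 45 min no member was called, nor any of the 12731 genes (0.0%), with 3 members higher and 3 lower at an unadjusted p under 0.05 and 1 called by DESeq2. The libraries of the 2 times did not overlap for 3 higher and 5 lower members, against 9.43% and 8.32% of all genes. Between HS and Tu at the matched time of 135 min no member was called either, with 2.12% of all genes called, 1.3% higher and 0.817% lower. The nearest was Hist3h2a, at 1.48 ± 0.29 (adjusted p = 0.0558, edgeR), with all HS libraries above all Tu libraries. At an unadjusted p under 0.05 there were 5 higher and 4 lower members, and DESeq2 called 5. Of the 31 members 19 lay below 0, against 52.7% of all genes. Without the first HS 135 min library 1 member was called.

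**Figure D5:**
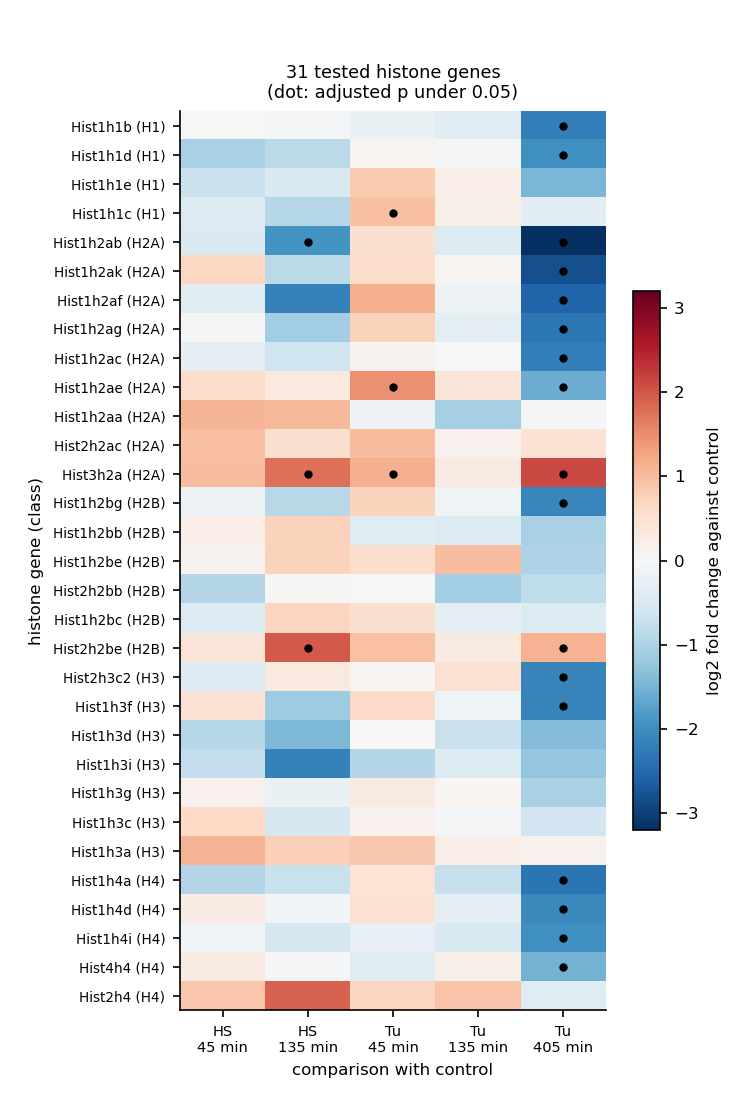
Log2 fold change against control of the 31 tested histone genes (rows, by class) in the 5 comparisons (columns), with red higher, blue lower and a dot where the adjusted p was under 0.05. The column of 405 min of tunicamycin holds 17 of the 23 dots, and no member has a dot at 45 min of HS or 135 min of tunicamycin.

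Over the 5 comparisons with control, 18 members were called at least once and 13 never. Hist3h2a was called in 3, always higher, and Hist1h2ab, Hist1h2ae and Hist2h2be in 2 each. Among the 13 never called were Hist1h2aa, Hist1h1e, Hist2h2bb, Hist1h3c and Hist2h4. Their precision differed over the comparisons with control, with an SE of 0.21 to 0.62 for Hist1h2aa, 0.27 to 0.52 for Hist2h4 and 0.51 to 0.78 for Hist1h2be. Hist1h2be was called lower between 405 and 135 min of Tu (−1.99 ± 0.55, adjusted p = 0.0216, edgeR). The lack of a call against control does not show that such a gene was unchanged.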

How the data were processed

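Poly(A) RNA of 18 libraries (6 groups of 3) was sequenced and, by the authors, aligned to mm9 and counted, with the DNAnexus platform, against RefSeq. The aligner and counter are not given in the sources used here. Deposited per gene were an estimated count, not normalized, and an RPKM made by the authors from it. A score and a signal that the authors derived from the RPKM were not used. Groups came from the labels. The members and lists were chosen with earlier results of these data known.

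Estimated counts were rounded and genes with at least 1 read in each of the 18 libraries were kept (12731 of 20207). Each comparison was fitted on its 6 libraries with edgeR 4.0.16 (TMM, glmQLFit, glmQLFTest) in R 4.3.3, with Benjamini-Hochberg adjustment over the genes tested. On data simulated for Tu 405 min against control, 191 of 200 changed genes among 12731 were recovered. The changed genes were drawn from all levels, with changes of equal size and a fixed spread between libraries. This rate therefore does not measure how many changes would be found among the sparsely read members. CPM per library were scaled by TMM over all 18 libraries. A level of 3 reads equals 0.0397 to 0.0821 CPM, and counting limits cover counting error only.

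Members given by library were the 2 highest per class in mean RPKM, the 12 called against control with the smallest adjusted p, and those with the largest rise and fall in each comparison with control. The remaining members are given by changes, ranges and counts. Coding parts came from GENCODE on mm9, matched by symbol, with sequence from the same build. Same-numbered libraries deviated together in each pair for Tu 135 min and control only (correlations 0.298, 0.256 and 0.212). There the replicate block, like the unblocked test, called 0 members.

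Alternatives were no filter, filterByExpr, DESeq2 1.42.0, DESeq2 size factors, total counts, all 6 groups in 1 fit, a replicate block, a GC offset, both together, and leaving out each library.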

Additional observations from a re-analysis of the deposited data

Results flagged for a closer look

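The effect of tunicamycin differed between 405 and 135 min in a direct test for 15 members (edgeR, adjusted p of 0.000365 to 0.0448). These were 48.4% of the 31 tested, near the 43.7% of all genes called in either direction. The share called lower was 45.2%, against 22.4% of all genes. The log2 difference was 1.82 for Hist3h2a. It was −1.69 for Hist1h1e, −1.95 for Hist1h1d, −2.93 for Hist1h2ak, −2.77 for Hist1h2ab, −2.02 for Hist1h2ag, −2.04 for Hist1h2ae and −2.27 for Hist1h2ac. It was −1.99 for Hist1h2bg, −1.99 for Hist1h2be, −2.66 for Hist2h3c2, −2.04 for Hist1h3f, −1.80 for Hist1h4d, −1.73 for Hist4h4 and −1.49 for Hist1h4i.

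For 5 members every library at 45 min of tunicamycin lay above the controls and every library at 405 min below them. Among all genes 17.2% lay above their controls at 45 min of tunicamycin, 29.5% below them at 405 min and 12.8% below them at 45 min of HS. The share of all genes with both was not computed. The changes against control were 0.95 and −0.35 for Hist1h1c, 0.58 and −2.82 for Hist1h2ak, 0.51 and −3.19 for Hist1h2ab, 1.47 and −1.60 for Hist1h2ae, and 0.61 and −2.14 for Hist1h3f. Hist1h1c was also below its controls in every library at 45 min of HS, at −0.45, and above them at 45 min of tunicamycin, at 0.95. These 6 opposite pairs share the control libraries, and the difference within each pair was not tested.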

How the results depend on the processing

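All 23 calls of members against control kept their direction under every alternative in which they could be fitted. Of these calls, 13 held under all 9 alternatives other than leaving out a library and 2 more, of Hist1h2ag and Hist1h4a, under the 8 in which they could be fitted, 12 held in all 6 fits that left out a library, and 15 held with the replicate block. Apart from the leave-one-out counts, which are given as ranges below, the counts of called members that moved by over 1.5 times were these. At HS 45 min, with 0 called, a fit of all 6 groups called 1. At HS 135 min, with 3 called, DESeq2 called 6, all 6 groups in 1 fit 5, the GC offset 7 and the replicate block 0. At Tu 45 min, with 3 called, the replicate block called 0. For HS 135 min against HS 45 min, with 0 called, DESeq2 called 1 and all 6 groups in 1 fit 2. For HS 135 min against Tu 135 min, with 0 called, DESeq2 called 5, all 6 groups 5, the GC offset 4 and total counts 2. The cause was not tested. The labels do not say whether libraries of the same number shared a batch. Same-numbered libraries deviated together in every pair only for Tu 135 min against control. For HS 135 min against HS 45 min the correlations were −0.621, 0.750 and 0.421. The block changed the count elsewhere from 17 to 15 at Tu 405 min and from 15 to 11 between Tu 405 and 135 min.

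Leaving out each library gave 0 to 4 calls at HS 45 min, 0 to 5 at HS 135 min, 0 to 3 at Tu 45 min, 0 to 0 at Tu 135 min, 13 to 20 at Tu 405 min, 0 to 0 between the HS times, 7 to 17 between Tu 405 and 135 min, and 0 to 1 between HS and Tu at 135 min. Low counts limit the members, since 26 had at most 26 reads in a library and the called falls rest on as few as 1 read in a treated library.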
